A study of Mus musculus with 12 samples.

Results

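Cultured synovial fibroblast preparations from primed paws of mice treated in vivo with the BET inhibitor I-BET151 were compared with preparations from non-primed paws of vehicle-treated mice. The comparison used 6 of the 12 RNA sequencing libraries of the series, 3 a side, which were taken from the sample labels. Of 55413 genes in the deposited expression table, the 16459 with a mean of at least 3 over all 12 libraries were tested. Both sides came from BALB/c mice, an inbred strain. The cells were released from skin-flayed paws with collagenase, pooled over 2 to 3 paws, grown for 5 passages, and their RNA was taken on day 18. The in vivo treated cells came from left paws injected with monosodium urate (MSU) crystals on day 0 and day 9, in mice given 20 mg/kg I-BET151 per day into the peritoneum, beginning 1 day ahead of the first crystals. The labels write the drug as I-BET in the protocols and as I-BET151 in the series title. The non-primed cells came from right paws injected with crystals on day 9 alone, in mice given injections without the drug. Priming, paw side and drug therefore all differ between the 2 groups and cannot be told apart here. The labels do not say whether the 3 libraries of a group came from separate animals, so p-values measure the spread between these pooled cultures, which may be technical. Primed vehicle libraries (3 left paws, crystals on day 0 and day 9, no drug) are given beside them.

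Urate crystals are the trigger of gout. They are sensed by the NLRP3 inflammasome, a protein complex that activates caspase-1 and releases mature interleukin-1β, and the fibroblasts of the joint lining respond with chemokines, interleukin-6 and matrix-degrading enzymes. The BET proteins, of which Brd2 is one, read acetylated histones and bring the elongation kinase P-TEFb to genes, and I-BET151 blocks this reading. Interferon-stimulated genes and many cytokine genes are known to depend on BET proteins, whereas Hexim1, which holds P-TEFb inactive, is known to rise when BET proteins are inhibited. The question addressed here is how far expression in treated primed cells lies from that of cells that were never primed.

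All values are regularized log (rlog) values, a log2 scale of expression on which differences of weakly expressed genes are shrunken, and every difference below is in vivo treated minus non-primed in log2 units, with its standard error, unless stated. The scale keeps no read counts, so the depth behind each value is unknown. A gene was called when its limma p, adjusted over all genes tested, was under 0.05, and "rose" or "fell" is used for called genes.

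In each group, 1 library stood apart. Across the 16459 genes, the library labelled non-primed 3 had a Pearson correlation of 0.956 and 0.948 with non-primed 1 and 2, and of 0.983 and 0.980 with in vivo 2 and 3. It lay nearer to the mean of in vivo 2 and 3 than to that of non-primed 1 and 2 in 13650 genes, 82.9% of those tested. In vivo 1 correlated with in vivo 2 and 3 at 0.891 and 0.897, and with the 3 libraries of primed cells treated in culture at 0.992, 0.987 and 0.986. The labels were kept as given, and whether either library carries the label of another group was not tested. Differences are given with all libraries and, where they moved, without these libraries. The fit without both of them was added after the data had been seen. Leaving out the library labelled non-primed 3 was planned only as a check that omits 1 library at a time. The use of that fit to name genes was chosen after the data had been seen. That library was the non-primed one nearest to in vivo 2 and 3, and the p-values do not allow for this choice.

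The 17 melanocyte lineage markers, genes of pigment cells, averaged 13.80, 13.96 and 12.43 in non-primed 1 to 3, 5.58, 12.44 and 12.42 in in vivo 1 to 3, and 6.60, 6.26 and 6.12 in primed vehicle 1 to 3. The 12 fibroblast markers averaged 9.85, 10.70 and 6.28 in the non-primed, 14.44, 8.97 and 9.35 in the in vivo, and 14.72, 14.51 and 15.12 in the primed vehicle libraries. Thus 5 of the 6 libraries compared, all but in vivo 1, held high melanocyte and lower fibroblast marker levels, against the tissue label of synovial fibroblasts. In these bulk samples, fewer cells of a type and less RNA per cell cannot be told apart. None of 10 lymphocyte markers and 2 of 10 neutrophil markers passed the filter on low values. Of the 15 macrophage markers 12 passed, and their mean ran from 3.58 to 6.09 in non-primed and from 4.49 to 7.64 in in vivo libraries.

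**Figure D1:**
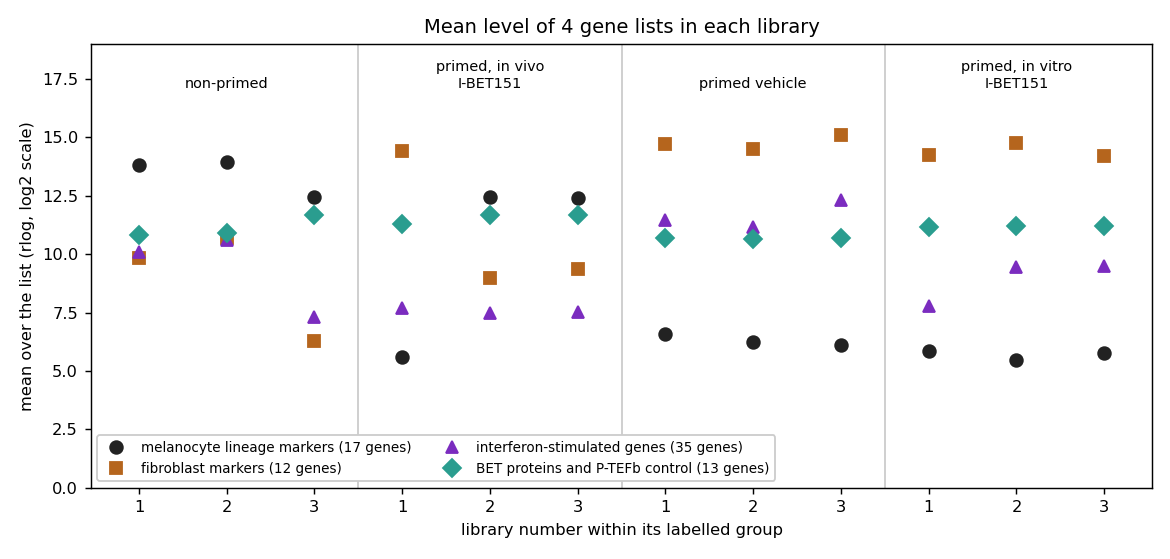
Mean rlog value (log2 scale) of 4 gene lists in each of the 12 libraries, in the order of their labelled groups; each symbol is the mean over the list's tested genes. In vivo 1 sits with the primed libraries for melanocyte (5.58) and fibroblast markers (14.44), and the library labelled non-primed 3 sits near in vivo 2 and 3 for interferon-stimulated genes (7.33 against 7.47 and 7.53).

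With all libraries, limma called 0 of 16459 genes (0%), and the smallest adjusted p was 0.2221. At an unadjusted p under 0.05 there were 3366 genes, 1844 higher and 1522 lower in the treated cells. All 3 in vivo libraries lay above all 3 non-primed libraries in 1434 genes (8.71%) and below them in 1418 (8.62%). Without in vivo 1 the count was again 0, with 2147 genes under the unadjusted threshold and a smallest adjusted p of 0.3401. Without the library labelled non-primed 3, 2812 genes were called, of which 1318 rose (8.01%) and 1494 fell (9.08%). Without both libraries 2514 genes rose (15.3%) and 2888 fell (17.5%). These 5402 genes held 2805 of the 2812, all in the same direction. For comparison, primed vehicle minus non-primed cells, with all libraries, gave 4754 genes that rose (28.9%) and 3774 that fell (22.9%). In vivo treated minus primed vehicle cells, which tests the difference between the 2 effects, gave 2946 that rose (17.9%) and 3585 that fell (21.8%). These comparisons share libraries with each other. The median difference over all genes tested was 0.03 with all libraries, 0.01 without in vivo 1 or without the library labelled non-primed 3, and -0.02 without both.

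**Figure D2:**
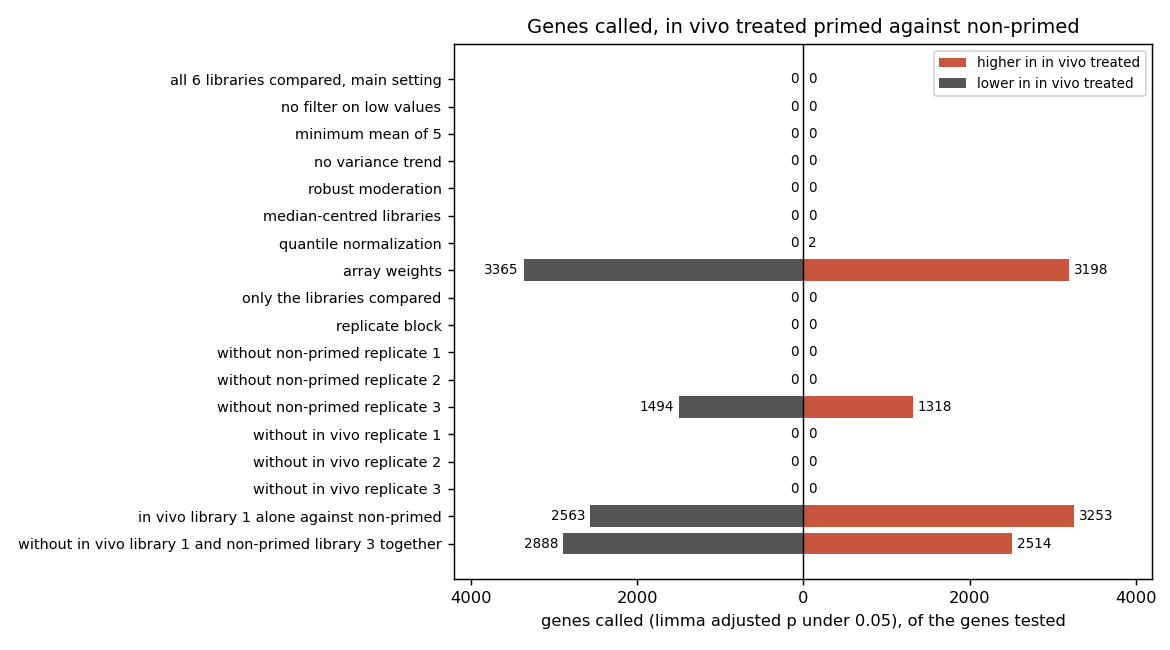
Number of genes called (limma adjusted p under 0.05) for in vivo treated against non-primed libraries under each setting; bars to the right count genes higher and bars to the left genes lower in treated cells. The count is 0 with all libraries, 2812 without non-primed replicate 3 and 6563 when libraries are weighted by their spread.

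Several genes of the BET and P-TEFb circuit were higher in treated cells than in non-primed 1 and 2. Hexim1 (chr11:103116231-103119725, GRCm38) was at 12.19, 12.25 and 14.26 in non-primed 1 to 3, at 13.90, 14.23 and 14.18 in in vivo 1 to 3, and at 12.39, 12.19 and 11.98 in primed vehicle 1 to 3. The in vivo libraries lay together, the library labelled non-primed 3 lay level with them, and the other non-primed libraries lay with the vehicle ones. The difference was 1.20 ± 0.45 with all libraries (limma adjusted p 0.222), 1.88 ± 0.15 without the library labelled non-primed 3 (adjusted p 0.000568) and 1.99 ± 0.14 without both (adjusted p 4.63e-05). Serpini1, which encodes neuroserpin, was at 7.30, 7.42 and 11.18 in non-primed and at 10.33, 11.09 and 11.11 in in vivo libraries. It showed the same division, with a difference of 2.20 ± 0.83 in all libraries and a rise of 3.48 ± 0.29 without the library labelled non-primed 3. Brd2 itself was at 14.78, 14.40 and 15.98 in non-primed and at 16.99, 16.00 and 16.02 in in vivo libraries. For Brd2 the groups did not overlap, although the library labelled non-primed 3 was 0.02 below the lowest in vivo library. Its difference was 1.28 ± 0.38 with all libraries (adjusted p 0.222) and 1.75 ± 0.28 without the library labelled non-primed 3 (adjusted p 0.00502).

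Of the 13 genes of this list, where 8.01% of all genes rose, 5 rose (Brd2, Hexim1, Serpini1, Mepce and the histone gene Hist2h2be) and Hexim2, a paralog of Hexim1, fell without the library labelled non-primed 3. Without both, 7 rose (15.3% of all genes did) and Hexim2 fell. The list's median difference was 0.16 with all libraries, 0.39 without the library labelled non-primed 3 and 0.50 without both. Primed vehicle against non-primed cells gave 0 rises and 3 falls in the same list, where 28.9% of all genes rose and 22.9% fell. In vivo treated against primed vehicle cells gave 6 rises, where 17.9% of all genes rose. Among them Hexim1 rose by 1.92 (limma adjusted p 0.011) and Brd2 by 1.70 (limma adjusted p 0.0093).

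Among the 8 largest rises without the library labelled non-primed 3 were 4 histone genes, chosen after their values had been seen. The ranking took only called genes whose groups did not overlap in that fit, and left out predicted genes. How many other histone genes were called was not counted. Hist2h3c2 rose by 4.55 ± 0.65, Hist1h3g by 4.20 ± 0.42, Hist1h2ad by 3.72 ± 0.29 and Hist1h4m by 3.90 ± 1.06. Hist1h3g was at 2.75, 3.15 and 7.35 in non-primed and at 6.77, 7.34 and 7.34 in in vivo libraries, so the library labelled non-primed 3 again had the in vivo level. Hist1h4m differed in that respect, with 1.45, 1.43 and 1.30 in non-primed and 7.99, 3.84 and 4.20 in in vivo libraries. Near-identical histone gene copies can share reads, so single members of this family are uncertain.

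The interleukin-1 genes, far above non-primed levels in primed vehicle cells, lay near non-primed levels in the in vivo treated cells. Il1b (chr2:129364570-129371139), the gene of interleukin-1β, was at 1.61, 2.12 and 1.05 in non-primed, at 1.81, 1.91 and 1.23 in in vivo and at 8.70, 11.07 and 11.80 in primed vehicle libraries. The in vivo and non-primed libraries overlapped. In all 6 Il1b lay under the minimum mean of 3 and passed the filter through the other groups, and at such levels the scale shrinks differences, so that similar values on both sides say little. Their difference was 0.06 ± 0.72, with a 95% interval from -1.55 to 1.67 and an adjusted p of 0.968, and it was -0.29 without both, while primed vehicle minus non-primed was 8.93 ± 0.72 (adjusted p 0.00046). Il1a, the related interleukin-1α gene, was at 3.34, 5.86 and 1.77 in non-primed, at 2.77, 2.71 and 2.95 in in vivo and at 11.86, 12.36 and 13.02 in primed vehicle libraries. Its in vivo values fell inside the non-primed range, with a difference of -0.85 ± 1.24 and an interval from -3.61 to 1.91, and of -1.77 ± 1.39 without both. Il1a too lay under 3 in every in vivo library, where differences are shrunken. Against primed vehicle cells both fell in the in vivo treated cells, with differences of -8.87 for Il1b and -9.60 for Il1a (adjusted p 0.00094 and 0.0016).

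Il6 (chr5:30013114-30019981), a cytokine of the acute phase response, was at 7.49, 9.12 and 3.94 in non-primed, at 6.91, 5.18 and 5.36 in in vivo and at 14.60, 15.15 and 15.20 in primed vehicle libraries. All 3 in vivo libraries were below non-primed 1 and 2 and above the library labelled non-primed 3. The difference was -1.03 ± 1.15 with all libraries, -2.49 ± 0.83 without the library labelled non-primed 3 (adjusted p 0.0709), and Il6 fell without both, by 3.04 (adjusted p 0.0164). Csf2, the growth factor GM-CSF, was at 2.49, 3.90 and 0.95 in non-primed, at 1.15, 1.44 and 0.64 in in vivo and at 8.10, 10.51 and 10.93 in primed vehicle libraries. Its difference was -1.37 ± 0.82 with an interval from -3.19 to 0.45, and -2.16 without both (adjusted p 0.081). Like Il1b it was low in these libraries, where differences are shrunken.

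The chemokine genes, which encode attractants of leukocytes, were less even across the in vivo libraries. Cxcl3 was at 3.51, 6.29 and 2.43 in non-primed and at 7.21, 3.38 and 3.07 in in vivo libraries, against 12.14 to 13.71 in primed vehicle libraries. Ccl2 was at 11.03, 12.01 and 5.91 in non-primed and at 14.84, 10.36 and 10.78 in in vivo libraries, against 16.57 to 17.41. In both genes in vivo 1 was the highest of the 6 libraries compared and the library labelled non-primed 3 the lowest. The differences were 0.48 ± 1.17 for Cxcl3 (interval -2.12 to 3.08) and 2.34 ± 1.49 for Ccl2 (interval -0.97 to 5.66). Without both libraries that stand apart they turned to -1.67 and -0.95, neither of them called (adjusted p 0.144 and 0.068). Cxcl5, named after its values had been seen, was at 11.23, 11.67 and 6.06 in non-primed and at 13.21, 7.94 and 8.69 in in vivo libraries. Its difference was 0.30 ± 1.55 with all libraries and turned to -3.13 ± 0.40 without both libraries that stand apart.

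Of the 33 cytokine and chemokine genes, Cx3cl1 alone rose without the library labelled non-primed 3, by 1.93 ± 0.42, and none fell, at a median of -0.52, where 8.01% of all genes rose and 9.08% fell. Without both libraries Cx3cl1 rose and 8 fell, where 17.5% of all genes fell (Cxcl5, Il6, Lif, Csf3, Il34, Il33, Il15 and Cxcl1), at a median of -1.52. With all libraries the median was 0.30. Primed vehicle cells had 29 rises and 1 fall in this list against non-primed cells, at a median of 6.39. Of all genes 28.9% rose and 22.9% fell in that comparison. In vivo treated cells had 27 falls and 0 rises against primed vehicle cells, at a median of -5.10, where 21.8% of all genes fell. Cell type markers moved with these values: the cytokine mean was 8.44 in in vivo 1, which had the high fibroblast and low melanocyte markers, and 6.13 and 6.24 in in vivo 2 and 3. Their part in the result was not tested.

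**Figure D3:**
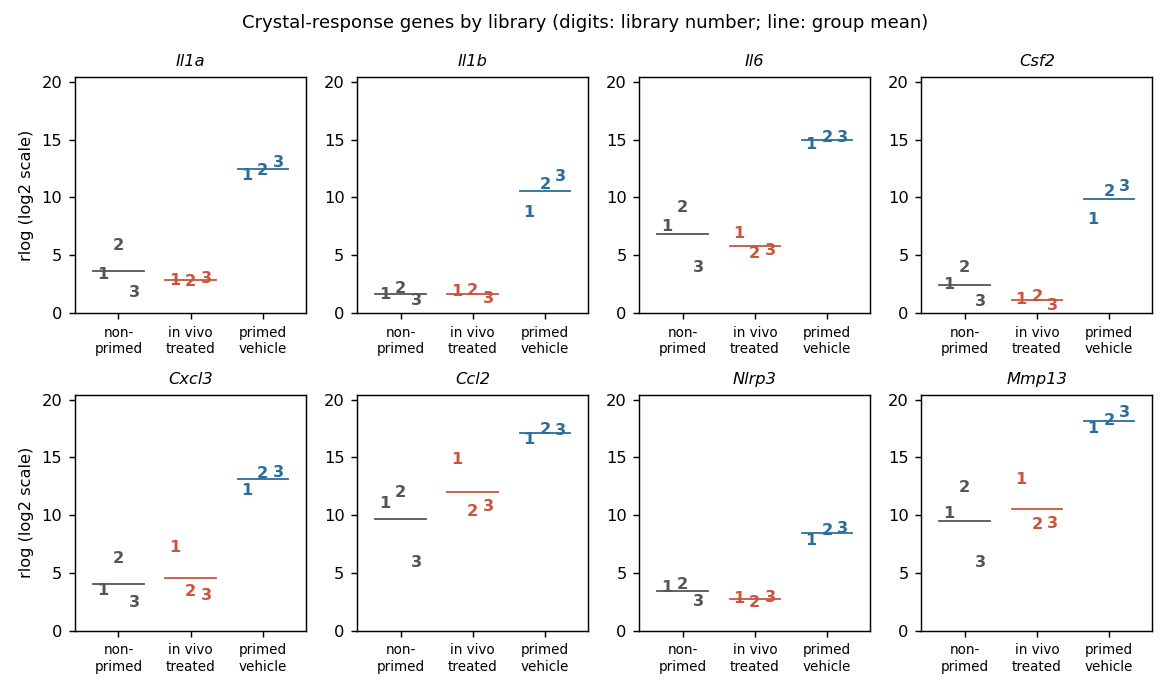
rlog values (log2 scale) of 8 crystal-response genes in non-primed, in vivo treated and primed vehicle libraries; digits are library numbers and lines are group means. For Il1a, Il1b, Il6, Csf2 and Nlrp3 every in vivo library lies within or close to the non-primed range, and primed vehicle libraries lie above both groups.

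Enzymes and sensors of the crystal response followed the same order. Nos2, the inducible nitric oxide synthase, was at 8.10, 8.79 and 4.78 in non-primed and at 9.73, 7.36 and 7.24 in in vivo libraries, against 14.72 to 17.30 in primed vehicle libraries, with a difference of 0.89 ± 1.08 (-1.14 without both). Ptgs2, the inducible prostaglandin synthase COX-2, was at 10.83, 12.03 and 5.36 in non-primed and at 12.93, 11.07 and 11.35 in in vivo libraries, against 16.52 to 17.65, with a difference of 2.37 ± 1.37 (-0.23 without both). The groups overlapped in both genes. Nlrp3, the crystal sensor itself, was at 3.71, 4.01 and 2.53 in non-primed, at 2.78, 2.46 and 2.89 in in vivo and at 7.82, 8.69 and 8.89 in primed vehicle libraries. In vivo levels lay below non-primed 1 and 2, and Nlrp3 fell by 1.19 without both libraries (limma adjusted p 0.0443). The difference was -0.71 ± 0.43 with all of them. All in vivo values and that of the library labelled non-primed 3 lay under the minimum mean of 3, where differences are shrunken. Gsdmd, the pore-forming effector of pyroptosis, had a difference of -0.62 ± 0.58, and fell by 1.80 without both (adjusted p 0.00217).

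Of 12 inflammasome and pyroptosis genes tested (of 14), 2 fell without the library labelled non-primed 3, where 9.08% of all genes fell: Pycard, the adaptor ASC, by 2.85, and Casp8, caspase-8, by 1.53. Pycard was at 10.75, 10.74 and 8.86 in non-primed, at 6.16, 8.82 and 8.70 in in vivo and at 8.10, 7.44 and 7.53 in primed vehicle libraries, so that primed vehicle cells too lay below the non-primed ones. The list had 6 falls and 0 rises without both, where 17.5% of all genes fell. Of 24 NF-kB pathway and target genes, Relb and Traf1 fell without the library labelled non-primed 3, and 10 fell without both, at medians of -0.14 and -0.45. The first count is no larger a share than the 9.08% over all genes, and the second stands beside 17.5%. The primed vehicle cells had 21 rises in the NF-kB list against non-primed cells, where 28.9% of all genes rose. In vivo treated cells had 20 falls in it against primed vehicle cells, where 21.8% of all genes fell. Of 14 toll-like receptor pathway genes tested (of 16), 5 fell without the library labelled non-primed 3 and 8 without both, beside the same 9.08% and 17.5%. Tlr1 fell by 3.84 ± 0.45 and Tlr4, the receptor of bacterial lipopolysaccharide, by 1.16 ± 0.14 without the library labelled non-primed 3. Myc, a target often followed under BET inhibition, had a difference of -0.12 ± 0.33 (interval -0.85 to 0.62) with all libraries, and fell by 0.79 without both.

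The list with the lowest median next to the melanocyte markers was that of interferon-stimulated genes, the antiviral programme that cells switch on in response to interferons. All of its 35 genes were tested. With all libraries 0 were called, and the median difference was -1.79. The unadjusted limma p was under 0.05 in 17, each lower in treated cells. At that threshold 1522 of all 16459 genes were lower. In 6 of the list, all in vivo libraries lay below all non-primed ones, where 8.62% of all genes did. Without the library labelled non-primed 3, 29 of 35 fell and none rose, at a median of -2.75, where 9.08% of all genes fell and the median of all genes was 0.01. Without both, 32 fell and none rose, again at a median of -2.75, where 17.5% of all genes fell. Without in vivo 1 alone, 0 were called and the median was -1.81. The list's mean was 10.11, 10.59 and 7.33 in non-primed, 7.71, 7.47 and 7.53 in in vivo and 11.48, 11.17 and 12.31 in primed vehicle libraries. In vivo 1, whose marker means differed from those of in vivo 2 and 3 by 6.84 log2 units or more for melanocytes and 5.09 or more for fibroblasts, lay within 0.24 of them here. The library labelled non-primed 3, from vehicle-treated mice by its label, lay at 7.33. The part of cell type or drug in these levels was not tested. Against primed vehicle cells 33 of 35 fell in the in vivo treated cells, at a median of -3.94, where 21.8% of all genes fell.

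Upstream sequences are shown for 4 genes of this list, chosen after their values had been seen: Rsad2 (viperin), Xaf1, Ifit3b and Oasl2. They had the largest falls without the library labelled non-primed 3 among genes that the promoter table of RefSeq (GRCm38.p6) held. Genes of 1 chromosome were left out of this choice and are not reported here. Each line gives the 250 bases before the listed start, 5′ to 3′ on the gene's strand, and capitals mark a pair of GAAA blocks with 2 bases of any kind between them, on either strand, the core of the interferon-stimulated response element.
Rsad2: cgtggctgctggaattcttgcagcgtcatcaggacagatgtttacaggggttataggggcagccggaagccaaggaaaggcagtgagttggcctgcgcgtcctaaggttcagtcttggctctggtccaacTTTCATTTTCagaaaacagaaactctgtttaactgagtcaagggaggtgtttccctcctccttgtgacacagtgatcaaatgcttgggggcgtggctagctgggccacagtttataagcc
Xaf1: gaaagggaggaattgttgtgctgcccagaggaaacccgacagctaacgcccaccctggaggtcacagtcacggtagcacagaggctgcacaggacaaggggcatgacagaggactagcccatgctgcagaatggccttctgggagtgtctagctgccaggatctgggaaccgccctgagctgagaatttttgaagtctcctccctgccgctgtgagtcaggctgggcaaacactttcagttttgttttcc
Ifit3b: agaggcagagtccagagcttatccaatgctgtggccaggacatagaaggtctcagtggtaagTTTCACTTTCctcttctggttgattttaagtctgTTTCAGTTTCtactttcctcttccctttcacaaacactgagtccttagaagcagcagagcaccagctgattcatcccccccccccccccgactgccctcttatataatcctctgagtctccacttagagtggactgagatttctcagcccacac
Oasl2: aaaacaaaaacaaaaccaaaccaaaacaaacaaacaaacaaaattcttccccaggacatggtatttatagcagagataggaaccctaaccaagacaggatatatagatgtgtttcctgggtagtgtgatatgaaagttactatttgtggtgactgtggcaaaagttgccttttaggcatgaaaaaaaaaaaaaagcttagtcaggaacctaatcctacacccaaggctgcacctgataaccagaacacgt
The first lies at chr12:26456453-26456702 on the minus strand, and the others lie on the plus strand at chr11:72301379-72301628, chr19:34607707-34607956 and chr5:114896684-114896933. Rsad2 held 1 match, which begins 120 bases before the start, and Ifit3b held 2, which begin 188 and 154 bases before it. Xaf1 and Oasl2 held 0 in this window, which says only that these letters are not there. Of the 35 genes 25 matched the table, and 13 of those 25 (52.0%) held the motif, against 821 of 27025 promoters in the table (3.04%) and 288 of 11613 promoters of tested genes (2.48%). A match is a description of the sequence and no evidence of binding in these cells.

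Oas2 (chr5:120730333-120749853), an antiviral enzyme, was at 8.76, 9.09 and 3.26 in non-primed, at 2.27, 3.01 and 2.50 in in vivo and at 8.59, 7.41 and 8.96 in primed vehicle libraries. Every in vivo library was below every other library of these groups. The difference was -4.44 ± 1.35 with all libraries (limma adjusted p 0.222), and Oas2 fell by 6.33 ± 0.77 without the library labelled non-primed 3 (adjusted p 0.00156). Rsad2 was at 12.67, 12.80 and 8.54 in non-primed, at 6.72, 8.56 and 8.55 in in vivo and at 9.97, 10.33 and 11.72 in primed vehicle libraries. Non-primed 1 and 2 were higher than the primed vehicle libraries, and the library labelled non-primed 3 had the level of in vivo 2 and 3. Its difference was -3.40 ± 1.11 with all libraries and -4.79 ± 0.81 without the library labelled non-primed 3 (adjusted p 0.00594). Mx2 belongs to a family of dynamin-like antiviral GTPases but is annotated as a polymorphic pseudogene in the mouse. It had a difference of -3.38 ± 1.06 with all libraries and fell by 4.66 ± 0.81 without the library labelled non-primed 3.

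Among the genes named whatever their result, Ifit1 was at 10.65, 11.42 and 8.12 in non-primed and at 8.21, 8.17 and 8.26 in in vivo libraries, against 13.04 to 14.57 in primed vehicle libraries. Isg15, a ubiquitin-like modifier, was at 10.71, 11.33 and 7.22 in non-primed and at 8.35, 7.60 and 7.64 in in vivo libraries. The groups overlapped for Ifit1 and Isg15 through the library labelled non-primed 3. With all libraries the differences were -1.85 ± 0.87 and -1.89 ± 1.04, and without the library labelled non-primed 3 both genes fell, by 2.82 and 3.16 (adjusted p 0.0308 and 0.0278).

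Antigen presentation genes, many of them interferon targets, had smaller differences. Of 13 MHC class I and antigen processing genes, 2 fell without the library labelled non-primed 3, where 9.08% of all genes fell: Psmb10, an immunoproteasome subunit, by 1.97, and Nlrc5, the transactivator of MHC class I, by 1.78. Without both, where 17.5% of all genes fell, 8 fell, Tap2 by 2.66 and H2-K1 by 1.49 among them, at a median of -1.49. In vivo treated cells had 13 of 13 falls against primed vehicle cells, where 21.8% of all genes fell. Of 18 complement genes tested (of 19), C2 fell without the library labelled non-primed 3, by 2.38, and 6 fell without both. The first is a smaller share than the 9.08% over all genes.

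**Figure D4:**
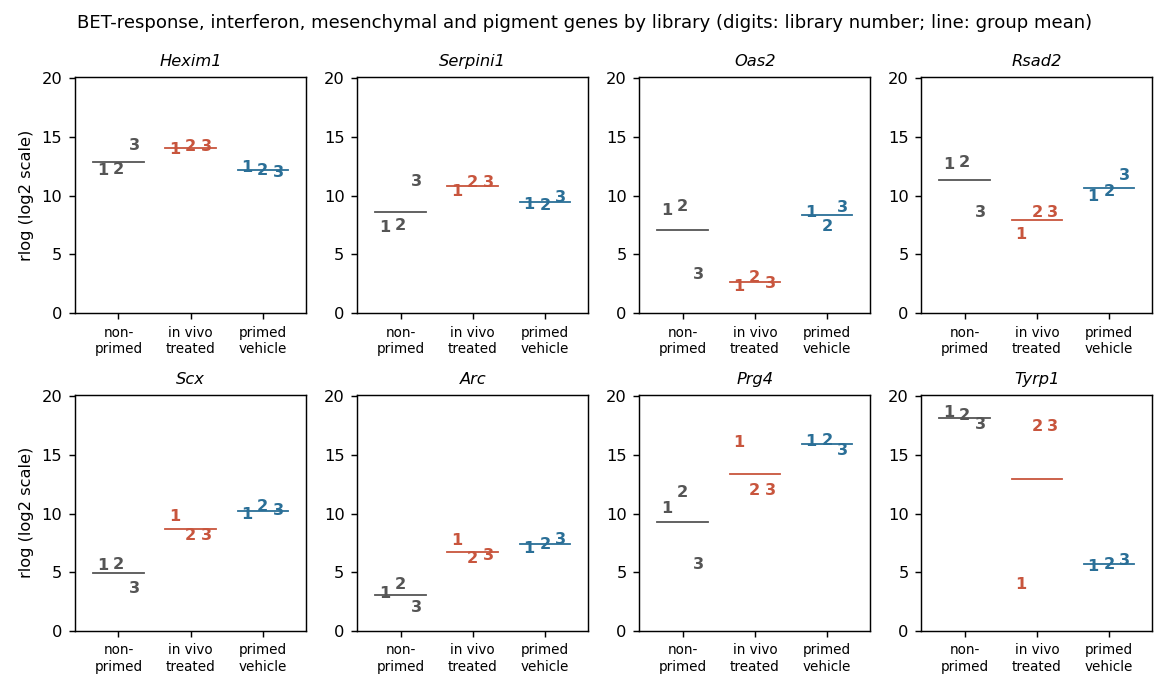
rlog values (log2 scale) of 8 genes in non-primed, in vivo treated and primed vehicle libraries; digits are library numbers and lines are group means. For Hexim1, Serpini1, Oas2 and Rsad2 the library labelled non-primed 3 lies near the in vivo level, for Scx, Arc and Prg4 it lies lowest, and for Tyrp1 in vivo 1 lies far below the other 5 libraries compared.

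Mmp3 and Mmp13, matrix-degrading enzymes of arthritic joints, lay within or above the non-primed range and below the primed vehicle libraries. Mmp3, stromelysin-1, was at 11.58, 13.67 and 8.05 in non-primed, at 14.34, 11.81 and 12.05 in in vivo and at 18.72, 20.07 and 20.47 in primed vehicle libraries. Mmp13, collagenase-3, was at 10.12, 12.36 and 5.93 in non-primed, at 13.06, 9.15 and 9.32 in in vivo and at 17.47, 18.18 and 18.91 in primed vehicle libraries. In both genes in vivo 1 was the highest and the library labelled non-primed 3 the lowest of the 6 libraries. The differences were 1.64 ± 1.33 (interval -1.33 to 4.60) and 1.04 ± 1.49 (interval -2.27 to 4.36), they were -0.69 and -2.00 without both, neither of them called, and those against primed vehicle cells were -7.01 and -7.67 (adjusted p 0.0054 and 0.0059). Of 33 proteases and inhibitors, Adam10 rose and Adam12, Timp4, Adamts4 and Adamts12 fell without the library labelled non-primed 3, where 8.01% of all genes rose and 9.08% fell. Adam12 fell by 3.32 ± 0.90, and the aggrecanase Adamts4 by 1.17 ± 0.27, all 3 in vivo libraries lying below all 3 non-primed ones. Tnfsf11, the osteoclast differentiation factor RANKL, was at 2.43, 4.20 and 2.23 in non-primed, at 6.51, 1.75 and 1.49 in in vivo and at 9.88, 9.32 and 9.72 in primed vehicle libraries. Its difference was 0.30 ± 1.14, and it fell by 1.70 without both (limma adjusted p 0.0418). Of the 6 libraries compared, all but non-primed 2 and in vivo 1 had Tnfsf11 under the minimum mean of 3, where differences are shrunken. Of the 7 osteoclast regulators 0 were called without the library labelled non-primed 3 and 6 fell without both, where 17.5% of all genes fell.

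Structural genes of fibroblasts had another level in in vivo 1 than in in vivo 2 and 3. Col1a1, a chain of type I collagen, was at 12.88, 14.26 and 9.00 in non-primed, at 18.39, 11.80 and 12.36 in in vivo and at 17.89, 18.18 and 18.63 in primed vehicle libraries. Acta2, smooth muscle actin, was at 10.58, 11.13 and 5.76 in non-primed and at 16.07, 9.21 and 9.75 in in vivo libraries. In vivo 1 was near the primed vehicle level in both genes (16.48 to 16.63 for Acta2), and in vivo 2 and 3 lay below non-primed 1 and 2. The differences were 2.14 ± 1.67 and 2.52 ± 1.74 with all libraries, 0.04 and 0.32 without in vivo 1, and -1.49 ± 0.50 and -1.38 ± 0.20 without both (adjusted p 0.0459 and 0.00105). Thy1, a marker of sublining fibroblasts, was at 8.42, 9.59 and 4.33 in non-primed and at 15.08, 8.01 and 8.30 in in vivo libraries. Lum, the proteoglycan lumican, was at 5.49, 7.65 and 3.20 in non-primed and at 11.60, 6.49 and 6.64 in in vivo libraries. Neither gene was called with all libraries, without in vivo 1, without the library labelled non-primed 3 or without both. Of 41 collagen and matrix genes, Col15a1 and Fbln1 fell without the library labelled non-primed 3 and none rose, a smaller share than the 9.08% of all genes that fell. Without both 15 fell and Sparc rose, where 17.5% of all genes fell. The list's mean was 10.28, 11.01 and 7.22 in non-primed and 14.47, 9.59 and 9.96 in in vivo libraries. The list's median was 2.16 with all libraries, 0.34 without in vivo 1, 0.98 without the library labelled non-primed 3 and -1.07 without both. Of 23 myofibroblast genes 1 rose without the library labelled non-primed 3 (Tpm1, a tropomyosin, by 1.03), and 3 rose and 10 fell without both, beside 15.3% and 17.5% of all genes.

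Of the genes of the joint lining and of limb mesenchyme, several were higher in every in vivo library than in every non-primed one. Prg4, the lubricant lubricin, was at 10.39, 11.79 and 5.67 in non-primed, at 16.09, 12.00 and 11.97 in in vivo and at 16.16, 16.20 and 15.38 in primed vehicle libraries. All in vivo libraries were above all non-primed ones, and the nearest pair was 0.19 apart. The difference was 4.07 ± 1.45 with all libraries (adjusted p 0.222) and 0.90 ± 0.41 without both (adjusted p 0.12). Of 12 lining markers, 6 had all in vivo above all non-primed libraries (Prg4, Tspan15, Htra4, Cd55, Hbegf and Htra1) and none the reverse, where 8.71% of all genes did. None of the 12 was called without the library labelled non-primed 3, and 4 rose and Vcam1 fell without both, where 15.3% of all genes rose. Of 17 limb position and Hox genes tested (of 20), 8 had all in vivo above all non-primed libraries. Without the library labelled non-primed 3 only Tbx4, a hindlimb factor, was called in that list, and it fell by 0.93. Without both, Pitx1, another hindlimb factor, Hoxa13, Hoxa9 and Hoxd11 rose and Tbx4 and Hoxa10 fell. The high level of in vivo 1 and the low level of the library labelled non-primed 3 moved with these counts, and their part was not tested.

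The genes of this paragraph were chosen after their values had been seen. They were among those with the smallest p-values with all libraries, taken only from genes whose groups did not overlap. Predicted genes were left out. Separation of the groups was thus a condition of the choice, and all of them were higher in treated cells. Scx (chr15:76457452-76459458), the tendon factor scleraxis, was at 5.58, 5.65 and 3.62 in non-primed, at 9.74, 8.14 and 8.13 in in vivo and at 9.92, 10.61 and 10.24 in primed vehicle libraries. Treated libraries thus lay between the non-primed and the primed vehicle ones. Its difference was 3.72 ± 0.57 with all libraries (unadjusted p 6.2e-05, adjusted p 0.222), and it rose by 3.05 ± 0.45 without the library labelled non-primed 3 (adjusted p 0.00345) and by 2.52 ± 0.22 without both (adjusted p 0.000106). Arc, an immediate-early gene of neurons, was at 3.21, 3.94 and 1.95 in non-primed, at 7.71, 6.15 and 6.41 in in vivo and at 6.98, 7.39 and 7.80 in primed vehicle libraries. It overlapped with primed vehicle cells, with an in vivo minus primed vehicle difference of -0.63 (adjusted p 0.36). Its difference from non-primed cells was 3.73 ± 0.54, and it rose by 3.18 ± 0.48 without the library labelled non-primed 3. Six2, a homeobox factor, was at 3.24, 4.16 and 3.49 in non-primed and at 8.72, 5.82 and 5.84 in in vivo libraries. Peg3, an imprinted zinc-finger gene, had a difference of 4.29 ± 0.94. Six2 and Peg3 rose without the library labelled non-primed 3, by 3.10 and 3.35, and without both, by 2.13 and 2.30.

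Beside Oas2, the 7 largest falls without the library labelled non-primed 3 were of genes highest in non-primed 1 and 2. They were again chosen after their values had been seen. Only called genes without overlap in that fit were ranked, and predicted genes were left out. Aire, the autoimmune regulator known from the thymus, was at 10.55, 9.78 and 2.16 in non-primed, at 1.03, 2.94 and 1.46 in in vivo and at 1.64, 3.05 and 4.38 in primed vehicle libraries. Gsdmc, a gasdermin, was at 12.00, 11.93 and 6.79 in non-primed, at 2.02, 6.58 and 6.69 in in vivo and at 1.97, 1.96 and 1.51 in primed vehicle libraries. The library labelled non-primed 3 lay near the treated libraries in Aire, and near in vivo 2 and 3 but not in vivo 1 in Gsdmc. Aire fell by 8.36 ± 0.82 and Gsdmc by 6.87 ± 1.20 without it, and with all libraries the differences were -5.69 ± 1.80 and -5.14 ± 1.48. Aire lay under the minimum mean of 3 in every in vivo library, where differences are shrunken. Ankfn1, Bfsp2, Gjb2 and Lrrc4b fell by 7.11, 6.27, 6.24 and 5.98, and the fall of Rab17 lay between the last 2. Aire, and Lrrc4b with 9.17 and 8.96 in non-primed 1 and 2, passed the filter on low values only through these libraries. Their falls are measured against the same libraries, so their place in this ranking says little. The largest rise in the same ranking was that of Ankrd35, by 5.11 ± 0.45.

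Pigment cell and proliferation genes separated in vivo 1 from the rest. Tyrp1, a melanin synthesis enzyme, was at 18.62, 18.37 and 17.56 in non-primed, at 3.98, 17.45 and 17.45 in in vivo and at 5.46, 5.66 and 6.03 in primed vehicle libraries. Mitf, the master regulator of melanocytes, was at 14.88, 14.97 and 14.46 in non-primed and at 10.31, 14.32 and 14.32 in in vivo libraries. Of 17 melanocyte lineage markers, 10 had all in vivo below all non-primed libraries, where 8.62% of all genes did. Rab27a, which carries pigment granules, fell by 4.65 without the library labelled non-primed 3, and 9 fell without both, where 17.5% of all genes fell. The list's median was -3.56 with all libraries, -0.93 without in vivo 1, -4.44 without the library labelled non-primed 3 and -1.38 without both. The proliferation marker Mki67 was at 15.32, 15.26 and 15.60 in non-primed, at 13.10, 15.36 and 15.43 in in vivo and at 12.28, 12.48 and 12.20 in primed vehicle libraries. Of 35 cell cycle genes, 16 had all in vivo below all non-primed libraries, where 8.62% of all genes did, and the list's mean was 11.35 in in vivo 1 and 12.99 and 12.98 in in vivo 2 and 3. In this list 0 were called without the library labelled non-primed 3 and 2 were called without both, where Ccnd1 (cyclin D1) fell by 2.04 and Cenpa fell by 0.81. In the primed vehicle cells 33 of the 35 fell against non-primed cells, where 22.9% of all genes fell. In vivo treated cells had 29 rises in this list against primed vehicle cells, where 17.9% of all genes rose. Cdkn2b, a cyclin-dependent kinase inhibitor, was at 7.88, 8.07 and 3.58 in non-primed and at 12.30, 8.25 and 8.50 in in vivo libraries, with a difference of 3.17 ± 1.24, and of 0.40 ± 0.19 without both.

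The glycolysis and unfolded protein response genes called without the library labelled non-primed 3, or without both, all fell. Of 25 glycolysis and hypoxia genes, 6 fell without the library labelled non-primed 3 (Aldoc, Pfkp, Tpi1, Eno1, Gpi1 and Ldhb) and none rose, where 9.08% of all genes fell. Aldoc, an aldolase, was at 11.96, 11.92 and 9.14 in non-primed and at 8.97, 9.20 and 9.20 in in vivo libraries, and fell by 2.82 ± 0.42. Without both, where 17.5% of all genes fell, 18 of the 25 fell, the hypoxia genes Car9 by 2.61 and Vegfa by 1.99 among them, at a median of -1.28. Of 16 unfolded protein response genes 5 fell without the library labelled non-primed 3, Trib3 by 3.28 and Chac1 by 1.74 among them, and 6 without both. Igf1, a growth factor, had a difference of 0.93 ± 1.09 with all libraries and of -1.32 without both, not called in either. Xist, the RNA of the inactive X chromosome, was at 9.40, 9.59 and 5.02 in non-primed, at 13.68, 8.60 and 10.16 in in vivo and at 13.83, 14.50 and 14.43 in primed vehicle libraries. Its difference was 2.81 ± 1.34 (adjusted p 0.257) and -0.12 without both, and the sex of the animals was not among the labels used here.

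**Figure D5:**
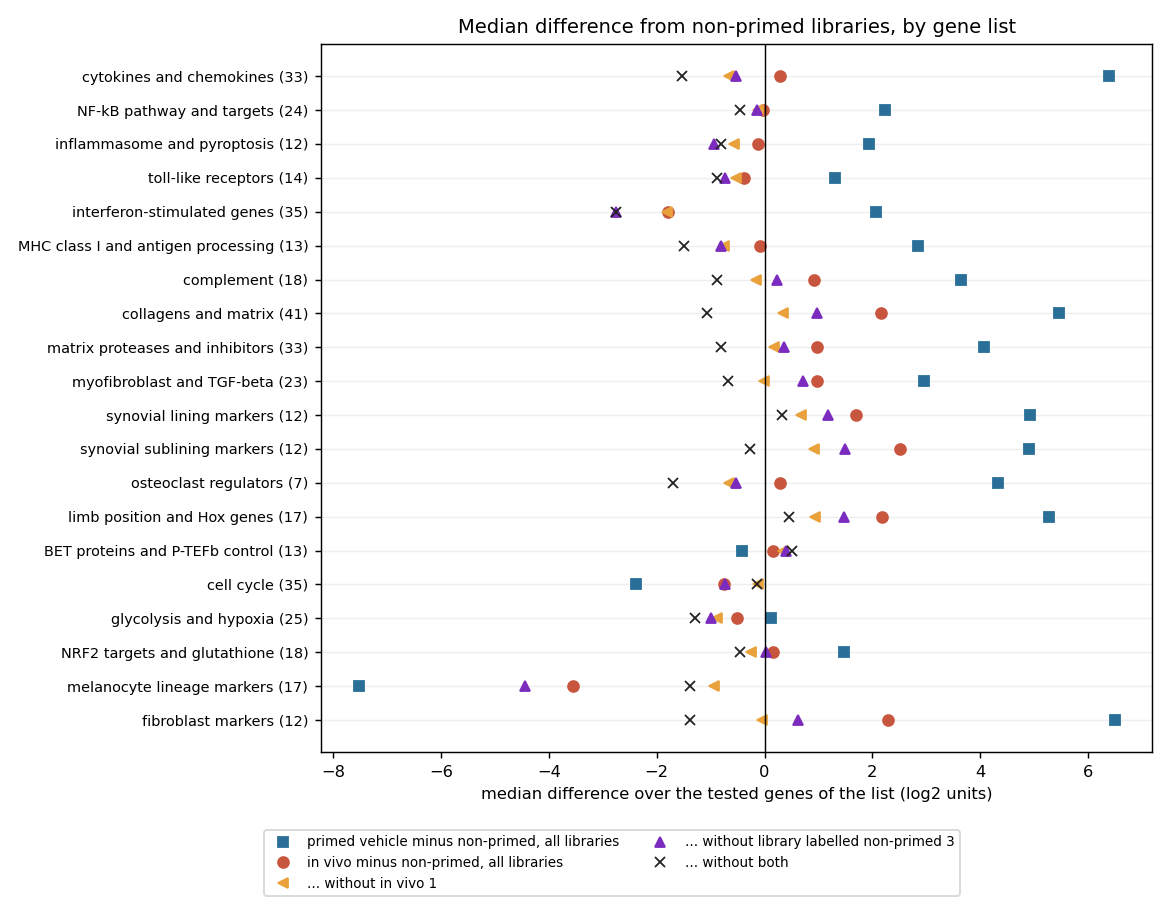
Median difference from non-primed libraries (log2 units, horizontal axis) over the tested genes of 20 gene lists (number in brackets), for in vivo treated libraries in 4 fits and for primed vehicle libraries. Interferon-stimulated genes lie below 0 in all 4 in vivo fits (-1.79 to -2.75), whereas collagens and matrix move from 2.16 with all libraries to -1.07 without both.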

How the data were processed

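Per the labels' protocols, libraries were made with a stranded polyadenylated RNA kit. Per the submitters' processing notes, cutadapt 1.18, STAR 2.6.1c, featureCounts of Subread 1.6.1, DESeq2 1.24.0 and GRCm38 were used. Settings, strand included, were not given in the sources used here, so genes that overlap an antisense gene are uncertain. The deposited table holds the authors' log2 values, regularized logs from -2.24 to 20.55 for 55413 genes, of which 19136 are at 0 throughout.

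Symbols and coordinates came from GENCODE M21. In R 4.3.3 with limma 3.58.1, a model with a mean for each group was fitted to the 12 libraries (two-sided, variance trend, Benjamini-Hochberg adjustment over 16459 genes), so groups share the spread. The fit was tested on simulated data with independent normal noise in each gene and no library that stands apart. That test therefore does not cover the shifts between libraries seen here. An exact permutation test of 3 against 3 cannot go below 0.1 and was not used. The alternatives are those of the closing section.

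The comparison and gene lists were chosen with earlier results of these data known. Predicted genes, such as those with Gm or Rik symbols, were left out wherever the largest rises and falls were ranked. The rule for named genes asked for the 8 largest rises and 8 largest falls, if called and without overlap of the groups, up to 3 called genes from each list, and 30 genes whatever their result. The first 2 parts gave none, since no gene was called with all libraries or without in vivo 1. Other genes were named after their values were seen. Some of the genes the rule names are not reported here.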

Additional observations from a re-analysis of the deposited data

How the results depend on the processing

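With all libraries, the count of 0 genes called held without a filter on low values, with a minimum mean of 5, without the variance trend, with robust moderation, with median-centred libraries and with only the 6 libraries compared. It was 2 with quantile normalization, 6563 (3198 higher, 3365 lower) with array weights, which down-weight variable libraries, 5816 (3253 higher, 2563 lower) for in vivo library 1 alone against the non-primed libraries, and 5402 without in vivo library 1 and non-primed library 3 together, a setting added after seeing the data. Leaving out 1 library at a time gave 0 to 2812, where 2812 came without non-primed 3 and 0 without any other. Without in vivo 1 as the starting point, the count of 0 became 2 without a filter, 3 with quantile normalization and 6535 with array weights, and 0 to 5402 when a further library was left out (5402 without non-primed 3). The cause of these shifts was not tested.

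Replicate numbers were not given as a pairing by the labels. The deviations of same-numbered libraries from their group means correlated at 0.249, -0.435 and 0.369 for numbers 1, 2 and 3. Those of differently numbered libraries ran from -0.412 to 0.43. With 1 library standing apart in each group, these values cannot decide whether the numbers pair the libraries. The main fit was left unpaired because the labels state no pairing. With the replicate number as a block the count with all libraries was 0 and the smallest adjusted p 0.2707.

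Some single genes turned sign and were called. With all libraries Cxcl5, Lif and Tnfsf11 turned to -2.62, -1.44 and -1.47 with array weights and to -3.13, -1.85 and -1.70 without both libraries. Acta2 and Col1a1 turned to -1.38 and -1.49 without both. Leaving out 1 further library gave -1.38 to 1.31 for Acta2 and -1.49 to 1.14 for Col1a1 in the fit without in vivo 1, and -1.38 to 2.05 and -1.49 to 1.81 in the fit without non-primed 3. Acta2 turned to -1.25 with array weights in the fit without non-primed 3. For in vivo 1 alone in that fit, Cxcl5, Igf1 and Tnfsf11 turned to 1.76, 2.11 and 3.20. Fits of in vivo 1 alone, its count of 5816 included, have 1 treated library, which is assumed to vary like the other groups. Depth is unknown, so the precision of weakly expressed genes, whose differences the transformation shrinks, could not be given.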
